A study of Mus musculus with 14 samples.

Results

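RNA immunoprecipitates made with a CPEB4 antibody from neurospheres labelled CPEB4-/- (knockout, KO) were set against the same precipitates from wildtype (WT) neurospheres. They are 4 of the 14 samples of the study, 2 replicates of each genotype, and were taken by their sample labels. Neurospheres are free-floating clusters of cultured neural stem cells and their progeny, and these cells came from the subventricular zone of adult mice and carry the label of no treatment. Both groups therefore differ in the genotype label alone, and both were precipitated with the CPEB4 antibody. The WT neurospheres also gave 2 precipitates with a control IgG and 2 inputs, the RNA before precipitation, which are shown beside many of the values. No KO input and no KO IgG library was used here, so a difference in RNA level and a difference in precipitation cannot be told apart between the genotypes. In such bulk samples, a change in the number of cells of a type and a change in RNA per cell cannot be told apart either. The labels do not say whether replicates were separate cultures or animals, which exons the deletion removes, or whether any batch was shared, so p-values measure the spread between these libraries, which may be technical.

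CPEB4 is 1 of the 4 mouse CPEB proteins, which bind U-rich cytoplasmic polyadenylation elements in the 3′ untranslated regions of mRNAs and recruit or displace the enzymes that lengthen and shorten poly(A) tails. Through tail length they set how much an mRNA is translated, and CPEB4 in particular has been studied in mitotic exit, in the unfolded protein response, and in the brain, where mRNAs of autism risk genes are among its known targets. In an RNA immunoprecipitation the antibody pulls down the protein with bound RNA. A precipitate from cells that lack the protein serves the same purpose as the IgG control: it shows the RNA that comes down without the protein.

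The files give whole-number read counts per gene. The KO precipitates held 16859202 and 11688494 counts (replicates 1 and 2, called KO 1 and KO 2 from here), the WT precipitates 13199456 and 13312121, the IgG libraries 10054346 and 11268997, and the inputs 17466296 and 15918316. A group of 17 genes, each with 1% or more of the counts in both IgG libraries, was left out before scaling. These 17 genes took 35.9% of the counts of KO 1 and 75.2% of KO 2, against 48.4% and 55.9% in the WT precipitates, 75.4% and 70.8% in IgG, and 0.232% and 0.334% in the inputs. KO 1 thus had the smallest share of the precipitates, and KO 2 a share within the range of IgG. With these genes left out, 10809173 counts remained in KO 1 and 2898187 in KO 2, against 6814303 and 5876927 in WT, so low genes are measured least precisely in KO 2.

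The largest of the 17 was Cmss1, a gene linked to ribosome biogenesis, with 7.97% and 12.4% of counts in the KO precipitates, 9.92% and 12.4% in WT, 11.5% and 11.0% in IgG, and 0.0106% and 0.0114% in the inputs. Its locus on chromosome 16 overlaps Filip1l, also left out, and the counts of overlapping genes cannot be told apart here. Peak1, a pseudokinase of the cytoskeleton, had 0.724% in KO 1 and 4.75% in KO 2, against 1.31% and 0.766% in WT and 4.56% and 3.85% in IgG. Kpna1, a nuclear import receptor, had 0.499% in KO 1 and 2.26% in KO 2, against 0.808% and 0.768% in WT and 2.53% and 2.33% in IgG. For Peak1 and Kpna1, KO 2 lay with the IgG libraries, and KO 1 lay below both WT precipitates. The other left-out genes were Gm42418, Zc3h7a, Arhgap21, Sspn, Jarid2, Lars2, Rsph3b, Camk1d, Il31ra, Gm23935, Dnah7b, Rsph3a and Gm24187.

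From here on, levels are CPM, the counts of a gene scaled to a fixed total of the remaining counts. Those of the 4 CPEB4 precipitates carry TMM scaling, which centres the libraries on the bulk of their genes. Those of IgG and input are plain CPM over the same genes, so their levels compare only roughly with the precipitates. Across the 15208 genes tested, Pearson's r of log2 CPM was 0.834 between KO 1 and KO 2 and 0.962 between WT 1 and WT 2. KO 2 had an r of 0.961 and 0.951 with the IgG libraries, against 0.906 and 0.919 with WT. KO 1 had an r of 0.966 and 0.937 with WT, against 0.823 and 0.896 with IgG. These correlations are across genes, which are not independent replicates and share length and abundance between libraries, and they are given as a description. KO 1 thus lay nearest to the WT precipitates and KO 2 nearest to IgG. The labels were kept as given.

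**Figure D1:**
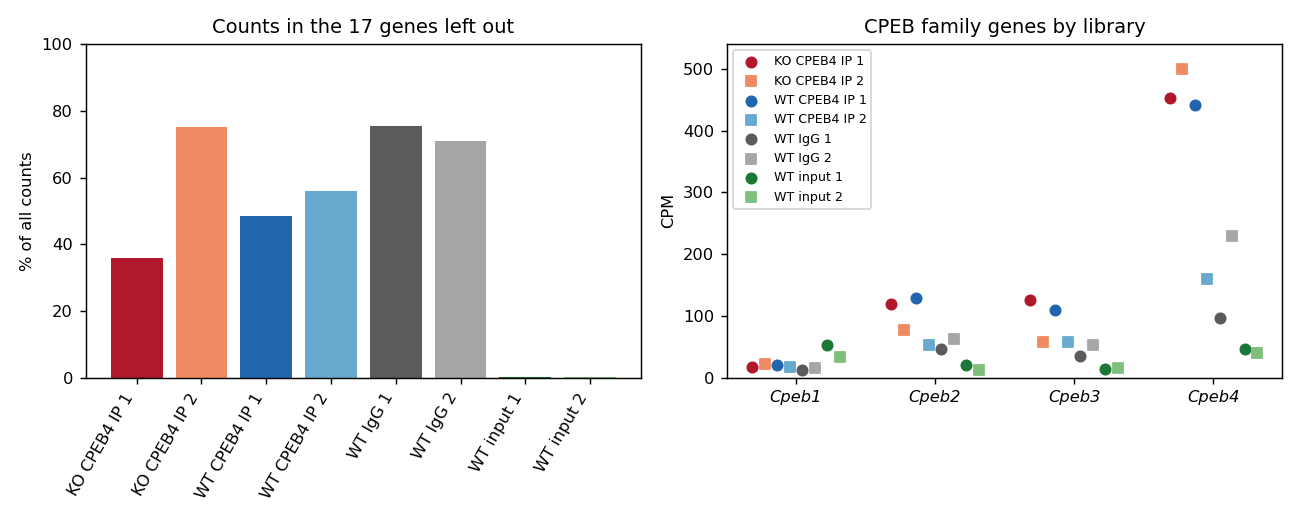
Left, the share of all counts (percent) in the 17 genes left out, 1 bar per library, which ran from 35.9% in KO CPEB4 IP 1 to 75.4% in WT IgG 1 among the precipitates. Right, the level (CPM) of the 4 CPEB family genes, 1 point per library, in which Cpeb4 stood at 452 and 499 CPM in the KO precipitates and at 441 and 161 CPM in WT.

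The targeted gene was read first as a check of the labels. Cpeb4 (ENSMUSG00000020300, chromosome 11, 31870104 to 31935635 in GRCm38.p6) had 452 CPM in KO 1 and 499 CPM in KO 2, against 441 and 161 CPM in the WT precipitates, 96.5 and 229 CPM in IgG, and 46.4 and 39.6 CPM in the inputs. Its mean was 476 ± 33.1 CPM in KO and 301 ± 198 CPM in WT (SD, n = 2 each). The KO values were both above the WT values, WT 1 only just, and overlapped them with scaling on library totals. The log2 fold change of KO over WT was 0.66 (SE 0.67; edgeR quasi-likelihood test, Benjamini-Hochberg adjusted p = 1.00). Cpeb4 RNA was therefore not lower in the libraries labelled knockout. A count over the whole gene need not drop where a deletion removes only some exons, so it does not settle the label, and KO below means the libraries labelled KO.

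The other 3 family members bind related RNA elements. Cpeb2 had 119.7 and 77.7 CPM in KO, against 129.6 and 53.7 CPM in WT, 46.8 and 62.6 CPM in IgG, and 21.0 and 11.9 CPM in the inputs. Cpeb3 had 126 and 57.9 CPM in KO, against 109 and 58.0 CPM in WT, 35.5 and 52.3 CPM in IgG, and 14.3 and 15.6 CPM in the inputs. Cpeb1, the founding member, had 17.3 and 22.5 CPM in KO, against 21.3 and 17.9 CPM in WT, 13.3 and 15.2 CPM in IgG, and 52.3 and 34.0 CPM in the inputs. The KO and WT libraries overlapped for all 3 genes, whose log2 fold changes were 0.11, 0.15 and 0.02. In every precipitate, IgG included, Cpeb2, Cpeb3 and Cpeb4 were above both inputs and Cpeb1 was below both.

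The comparison asked which RNAs differ between the CPEB4 precipitates when the cells are labelled as lacking CPEB4. No gene passed an adjusted p of 0.05 in either direction (edgeR quasi-likelihood test with Benjamini-Hochberg adjustment, 0.0% of 15208 genes higher and 0.0% lower), and the smallest adjusted p was 1.00. At an unadjusted p under 0.05 there were 41 genes, or 0.27% of those tested, 15 higher (0.0986%) and 26 lower (0.171%) in KO. With no difference between the groups, correctly scaled p-values would give a share of 0.05. The share seen was lower, so the unadjusted p-values serve here only to rank genes. DESeq2 on the same libraries called 1 gene, Rprl3, and without a low-count filter edgeR called 27 genes, 10 higher and 17 lower. The median log2 fold change over all genes was 0.06. Since no gene passed the test as designed, what follows gives values and calls no gene changed.

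The replicates set the limit. KO 1 and KO 2 were more than 2-fold apart at 6303 genes (41.4%), and WT 1 and WT 2 at 859 genes (5.65%). The SD over genes of the log2 ratio between replicates was 1.21 for KO and 0.56 for WT. KO 1 lay above both WT libraries at 37.1% of genes and below both at 39.0%, and KO 2 above both at 41.2% and below both at 40.1%. The 2 KO libraries seldom left the WT range on the same side. Both lay above both WT libraries at 839 genes (5.52%) and below both at 1074 genes (7.06%). They lay on opposite sides of WT at many more, with KO 1 above and KO 2 below at 3769 genes (24.8%), and KO 1 below and KO 2 above at 4162 genes (27.4%).

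**Figure D2:**
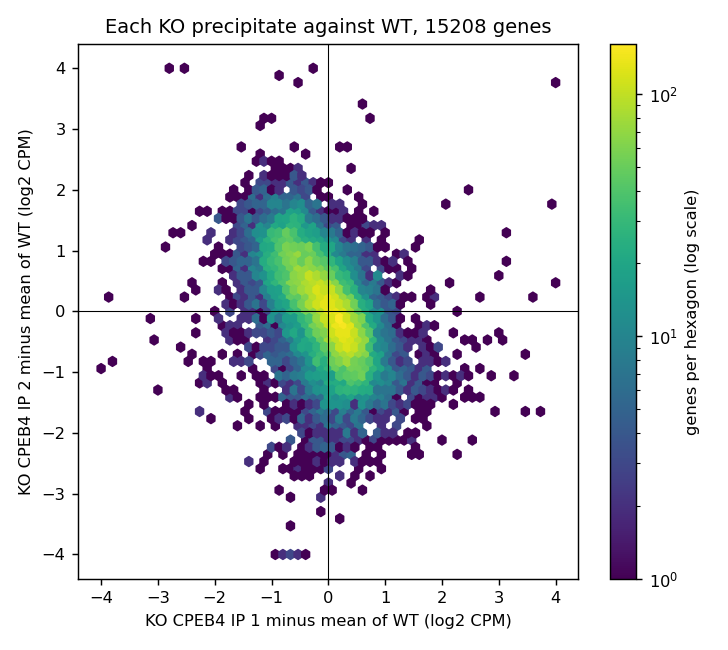
Difference of KO CPEB4 IP 1 (horizontal) and of KO CPEB4 IP 2 (vertical) from the mean of the 2 WT precipitates, in log2(CPM + 0.5), for 15208 genes counted in hexagons on a log colour scale, with differences beyond the axes drawn at the edge. The cloud runs from the upper left, where 4162 genes had KO 1 below and KO 2 above both WT libraries, to the lower right, where 3769 genes had the opposite.

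Among genes with both KO libraries above both WT libraries and a mean of 50 or more counts in KO, the smallest unadjusted p (0.000365, edgeR quasi-likelihood test) belonged to Rprl3 (ENSMUSG00000088025, chromosome 8, 3803125 to 3803359), a noncoding RNA gene named for its likeness to the RNA of ribonuclease P. It had 44.8 CPM in KO 1 and 8.94 CPM in KO 2, against 0.142 and 0.313 CPM in WT, 18.2 and 242 CPM in IgG, and no count in either input. These stand for 478 and 23 counts in KO, against 1 and 2 counts in WT and 45 and 796 in IgG. Among the precipitates, those of WT with the CPEB4 antibody held the fewest counts, near the inputs, and KO 1 and the second IgG library held the most. The ratio of KO to WT was 169 (57.7 to 825, exact 95% interval for counting error only), and it rests on KO 1, which held 478 of the 501 KO counts. With 3 WT counts a fitted fold change depends on the prior count, and its log2 value was 7.57 with KO 1 alone and 5.17 with KO 2 alone. DESeq2 gave an adjusted p of 1.72e-05. Genes of like sequence, Rpph1 among them, could share its reads, which was not tested, so its level is uncertain.

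Peg10, an imprinted gene derived from a retrotransposon, and Sgce, the imprinted sarcoglycan gene next to it, lie on chromosome 6. Peg10 had 41.5 and 8.55 CPM in KO, against 1.42 and 3.13 CPM in WT, 14.5 and 71.7 CPM in IgG, and 2.18 and 13.1 CPM in the inputs (log2 fold change 3.48, SE 0.86). Sgce had 86.9 and 3.89 CPM in KO, against 3.26 and 2.35 CPM in WT, 3.63 and 34.0 CPM in IgG, and 0.574 and 1.89 CPM in the inputs (log2 fold change 4.03, SE 1.24). For Sgce the fold rests on KO 1, since KO 2 was barely above WT 1.

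Cybrd1, a membrane ferric reductase, had 118 and 23.7 CPM in KO, against 11.5 and 14.4 CPM in WT, 15.3 and 123 CPM in IgG, and 12.7 and 42.7 CPM in the inputs. Cd93, a transmembrane receptor known from endothelial and myeloid cells, had 61.4 and 16.3 CPM in KO, against 3.69 and 11.4 CPM in WT, 25.8 and 84.8 CPM in IgG, and 6.43 and 30.9 CPM in the inputs. Fndc3c1, a fibronectin domain gene, had 35.3 and 6.22 CPM in KO, against 4.54 and 3.45 CPM in WT, 8.48 and 55.6 CPM in IgG, and 2.24 and 6.11 CPM in the inputs. In these 3 genes KO 1 and the second IgG library were the high ones, and the second input was above the first. Their log2 fold changes were 2.46, 2.38 and 2.41, with SEs of 0.76, 0.80 and 0.81.

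Zfp791, a zinc finger gene, had the opposite order of the KO libraries, with 249 CPM in KO 1 and 1752 CPM in KO 2, against 107 and 238 CPM in WT, 1579 and 816 CPM in IgG, and 1.49 and 0.504 CPM in the inputs. BC107364 had 27.3 and 49.0 CPM in KO, against 15.7 and 14.3 CPM in WT and 96.1 and 73.5 CPM in IgG. In both genes KO 2 was the higher KO library, and both IgG libraries were above WT. Scrn1, secernin 1, had 21.9 and 6.61 CPM in KO, against 4.11 and 5.17 CPM in WT. Atp9a, a phospholipid flippase of endosomes, had 12.4 and 8.16 CPM in KO, against 4.40 and 4.23 CPM in WT. The log2 fold changes of these 4 genes lay between 1.27 for Atp9a and 2.54 for Zfp791.

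The named genes of smallest p with both KO libraries below both WT libraries had KO replicates that were mostly closer to each other. The other genes of this class were not compared in this way. Fbln7 (chromosome 2), an extracellular matrix protein of the fibulin family, had 5.63 and 4.66 CPM in KO, against 15.03 and 23.8 CPM in WT, 9.69 and 3.65 CPM in IgG, and 35.9 and 19.5 CPM in the inputs. Nr5a2 (chromosome 1), the nuclear receptor LRH-1, had 9.66 and 7.77 CPM in KO, against 31.1 and 22.4 CPM in WT, 10.1 and 3.04 CPM in IgG, and 2.12 and 3.59 CPM in the inputs. In both genes the KO values lay between the IgG values, and WT lay above them. The log2 fold changes were -1.90 (SE 0.51) for Fbln7 and -1.60 (SE 0.47) for Nr5a2, with unadjusted p of 0.00750 and 0.0108 by the edgeR test and adjusted p of 1.00 for each.

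Fosb, an immediate early transcription factor of the AP-1 complex, had 7.97 and 3.50 CPM in KO, against 18.9 and 24.8 CPM in WT, 1.21 and 2.13 CPM in IgG, and 23.6 and 0.756 CPM in the inputs. Bcl11a, a zinc finger repressor of neural and blood development, had 5.06 and 8.16 CPM in KO, against 21.6 and 17.6 CPM in WT, 6.86 and 1.52 CPM in IgG, and 6.77 and 5.99 CPM in the inputs. Grin2a, a subunit of the NMDA receptor, had 7.60 and 15.5 CPM in KO, against 36.3 and 29.1 CPM in WT, 10.9 and 1.22 CPM in IgG, and 0.803 and 0.126 CPM in the inputs. In each of these genes the WT precipitates were above KO and above both IgG libraries, with log2 fold changes of -1.86 for Fosb, -1.60 for Bcl11a and -1.53 for Grin2a. KO 2 held only 9 counts of Fosb, 21 of Bcl11a and 40 of Grin2a.

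Eda, the TNF-family ligand ectodysplasin, had 115 and 68.4 CPM in KO, against 318 and 163 CPM in WT, 45.6 and 27.0 CPM in IgG, and 21.8 and 13.4 CPM in the inputs. Lrmda, a gene of melanocyte differentiation, had 49.0 and 22.9 CPM in KO, against 84.5 and 80.9 CPM in WT, 17.4 and 4.56 CPM in IgG, and 6.94 and 3.21 CPM in the inputs. Abca1, the transporter that exports cholesterol from cells, had 24.9 and 17.1 CPM in KO, against 41.1 and 47.2 CPM in WT, 18.6 and 15.8 CPM in IgG, and 16.1 and 8.45 CPM in the inputs. In these 3 genes, too, WT was the highest group. Tmem132e, a transmembrane protein gene, had 2.72 and 4.66 CPM in KO, against 8.93 and 9.09 CPM in WT, and 6.05 and 0.304 CPM in IgG. Gpr180, a membrane protein gene, had 21.7 and 22.5 CPM in KO, against 25.7 and 104 CPM in WT, so that its log2 fold change of -1.55 rests on WT 2.

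**Figure D3:**
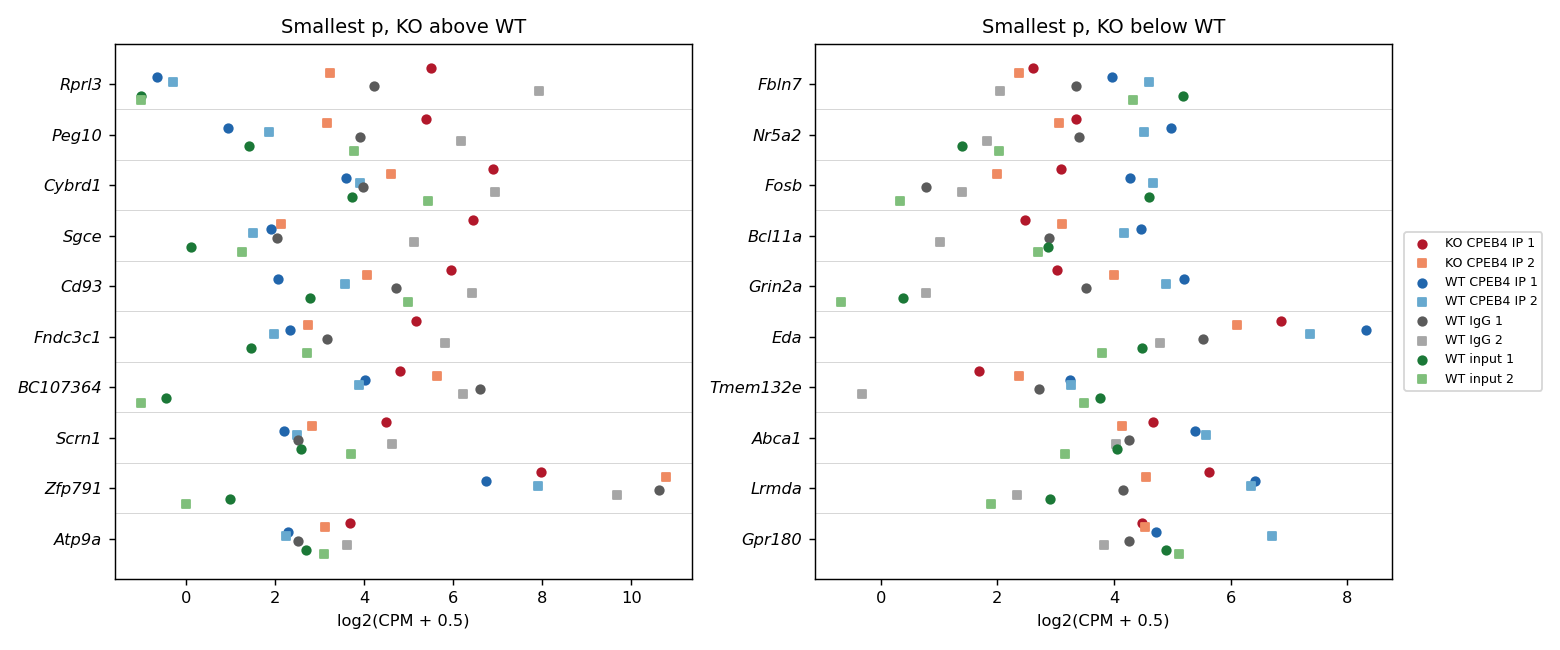
Level in each of the 8 libraries, as log2(CPM + 0.5), of the 10 named genes of smallest unadjusted p with both KO precipitates above (left) or below (right) both WT precipitates, 1 point per library. On the left the KO points of most genes lie far apart. KO CPEB4 IP 1 lies near the second IgG library for Cybrd1 (118 and 123 CPM). It lies well below that library for Rprl3 (44.8 and 242 CPM). On the right the KO points of Fbln7 (5.63 and 4.66 CPM) and Nr5a2 (9.66 and 7.77 CPM) lie close together, below WT.

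The gene lists were read by the number of members outside the WT range and by medians, each against all genes. No member of any of the 27 lists was called. Over all genes, both KO libraries lay above WT at 5.52% and below at 7.06%, and list counts of members outside the WT range are to be read against these shares. Of 26 mRNAs of poly(A) tail enzymes and their partners, none had both KO libraries above both WT libraries and 1 (3.85%) had both below, and the median log2 fold change was 0.08. KO 1 was above and KO 2 below WT in 7 (26.9%, against 24.8% of all genes), and the reverse held in 8 (30.8%, against 27.4%). The member below was Pan2, a subunit of a deadenylase, with 21.2 and 20.2 CPM in KO, against 21.6 and 30.4 CPM in WT. Cnot7, the catalytic deadenylase of the CCR4-NOT complex that CPEB proteins can recruit, had 52.0 and 75.4 CPM in KO, against 57.9 and 36.0 CPM in WT. Cnot8, its paralog, had 16.5 and 28.4 CPM in KO, against 20.6 and 13.8 CPM in WT. None of the 16 nuclear cleavage and polyadenylation genes was outside the WT range on the same side in both KO libraries, and their median was 0.06. Clp1, a kinase of the cleavage complex, had 1.88 and 8.94 CPM in KO, against 3.97 and 1.88 CPM in WT, and Cpsf4, which binds the polyadenylation signal, had 18.6 and 39.6 CPM in KO, against 29.4 and 13.6 CPM in WT.

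RNA-binding proteins that act on AU-rich or polyadenylation elements gave 1 of 23 members below WT in both KO libraries and none above, with a median of 0.18. That member was Zfp36, which speeds decay of AU-rich mRNAs, with 1.97 and 2.33 CPM in KO, against 3.83 and 4.23 CPM in WT. Igf2bp2, an RNA-binding protein that stabilises mRNAs, had 52.2 CPM in KO 1 and 8.94 CPM in KO 2, against 9.08 and 6.42 CPM in WT and 7.27 and 44.7 CPM in IgG. It was high in KO 1 and in the second IgG library, and KO 2 lay within the WT range. Among 30 hnRNP and splicing factors, and among 22 translation factors, no member had both KO libraries on the same side of WT, and the medians were 0.17 and 0.24. Srsf1, a splicing activator, had 77.8 CPM in KO 1 and 219.9 CPM in KO 2, against 121 and 109 CPM in WT, and Srsf2, of the same family, had 36.9 and 113 CPM in KO, against 57.2 and 52.3 CPM in WT. Eif5a, which helps ribosomes past stall sites, had 39.1 and 165 CPM in KO, against 58.4 and 75.7 CPM in WT, and Eif3b, a subunit of an initiation factor, had 46.0 and 80.4 CPM in KO, against 39.1 and 55.5 CPM in WT. KO 2 was above both WT libraries in these 4 genes, and KO 1 was below both in all but Eif3b.

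Of 61 autism risk genes tested, 1 had both KO libraries above WT (1.64%, against 5.52% of all genes) and 4 had both below (6.56%, against 7.06%), and the median log2 fold change was -0.00. KO 1 was above both WT libraries at 40 of 61, against 37.1% of all genes, and KO 2 below both at 40 of 61, against 40.1%. Over all genes spanning 100 to 300 kb, KO 1 was above at 67.2% and KO 2 below at 85.2%. The part of gene span in the counts of the autism list was not tested. Chd8, a chromatin remodeller, was the member above, with 152 and 283 CPM in KO, against 145 and 90.1 CPM in WT, and 72.3 and 261 CPM in IgG. Bcl11a, Myt1l and Dip2a were among the ones below. Cntn4, a neuronal adhesion protein, had 192 CPM in KO 1 and 8.94 CPM in KO 2, against 21.0 and 18.0 CPM in WT and 10.9 and 102 CPM in IgG. Auts2, among the highest members, had 1301 and 507 CPM in KO, against 1344 and 991 CPM in WT, and 377 and 478 CPM in IgG. Cntn4 and Auts2 both had KO 2 below both WT libraries, and differed in KO 1.

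CPEB4 has been studied in the unfolded protein response, in which cells answer misfolded protein in the endoplasmic reticulum. Of 18 such genes, 1 had both KO libraries below WT and none above, with a median of 0.05. It was Ddit3, the stress factor CHOP, with 10.6 and 6.61 CPM in KO, against 11.9 and 11.9 CPM in WT, and 10.9 and 10.9 CPM in IgG. Pdia3, a disulfide isomerase, had 44.5 and 72.3 CPM in KO, against 40.4 and 55.2 CPM in WT, and 99.7 and 50.7 CPM in IgG. Hspa5, the chaperone BiP, had 15.4 and 54.0 CPM in KO, against 15.6 and 42.0 CPM in WT. Among the 17 genes of the APP family and its processing, 3 had both KO libraries below WT, namely Bace2, Sorl1 and Adam17 (17.6%, against 7.06% of all genes), and none above, with a median of -0.10. On library totals the number below was 4 of 17 (23.5%, against 13.6% of all genes). Bace2, a protease that cuts APP, had 5.44 and 1.17 CPM in KO, against 9.64 and 6.58 CPM in WT. Sorl1, a sorting receptor of APP, had 3.56 and 6.99 CPM in KO, against 8.23 and 8.78 CPM in WT, and App itself had 256 and 132 CPM in KO, against 219 and 194 CPM in WT.

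With TMM scaling, cholesterol synthesis was the list with the largest share of members for which both KO libraries left the WT range on the same side. Of 21 genes, 11 (52.4%) had both KO libraries above both WT libraries, against 5.52% of all genes, and none had both below. With scaling on library totals in place of TMM the number was 7 of 21 (33.3%), against 1.95% of all genes, and immediate early genes, on the low side, had the larger share (43.8%). The median log2 fold change was 0.41, with a median of 0.22 for KO 1 and 0.65 for KO 2 against the WT mean, and no member passed an unadjusted p of 0.05. Mvd, mevalonate decarboxylase, had 23.0 and 45.5 CPM in KO, against 16.9 and 17.6 CPM in WT, 35.9 and 59.2 CPM in IgG, and 151 and 180.4 CPM in the inputs. Fdps, which makes farnesyl pyrophosphate, had 42.6 and 84.3 CPM in KO, against 28.2 and 38.4 CPM in WT, 98.5 and 116 CPM in IgG, and 92.9 and 139 CPM in the inputs. Lss, lanosterol synthase, had 81.0 and 79.7 CPM in KO, against 56.3 and 59.9 CPM in WT, and 70.6 and 132 CPM in IgG. The summed level of the 21 genes was 1432 and 2295 CPM in KO, against 1341 and 1443 CPM in WT, 2256 and 2231 CPM in IgG, and 5167 and 6501 CPM in the inputs. In KO 2 the sum thus stood at the IgG level, and in KO 1 it lay within the WT range.

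Immediate early genes, which cells transcribe within minutes of a stimulus, leaned the other way by median in KO 1 but not in KO 2. Their median log2 difference from the WT mean was -1.13 in KO 1 and 0.46 in KO 2. The median fitted log2 fold change of -0.42 therefore rests on KO 1. Of 16 tested, 5 (31.2%) had both KO libraries below both WT libraries, against 7.06% of all genes, and none had both above. On library totals the number was 7 of 16 (43.8%), against 13.6% of all genes. The 5 were Fosb, Fos, Ier2, Junb and Nr4a1. Fos, the partner of JUN in AP-1, had 21.5 and 24.1 CPM in KO, against 43.0 and 40.1 CPM in WT, 16.95 and 20.05 CPM in IgG, and 136 and 21.8 CPM in the inputs. Nr4a1, an orphan nuclear receptor, had 11.6 and 5.44 CPM in KO, against 17.4 and 12.8 CPM in WT, and 7.67 and 9.42 CPM in IgG. Egr1, a zinc finger factor, had 58.2 and 106 CPM in KO, against 96.0 and 139 CPM in WT, and overlapped. Jund, another AP-1 member, had 16.4 CPM in KO 1 and 148 CPM in KO 2, against 58.6 and 45.4 CPM in WT. KO 1 was below both WT libraries for 15 of the 16 genes (39.0% of all genes), whereas KO 2 was above both for 9 (41.2% of all genes) and below both for 5 (40.1% of all genes). Fosb, Fos and Egr1 were also higher in the first input than in the second, and the part of this difference between input replicates in the result was not tested.

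Genes of the G2 and M phases, in which CPEB4 has a known role, had 6 of 24 members above WT in both KO libraries (25.0%, against 5.52% of all genes) and none below, with a median of 0.25. On library totals the number was 3 of 24 (12.5%, against 1.95% of all genes). Cenpf, a kinetochore protein, had 217 and 844 CPM in KO, against 180.4 and 152 CPM in WT, and 133 and 411 CPM in IgG (log2 fold change 1.67). Cenpa, the centromeric histone, had 45.5 and 59.8 CPM in KO, against 40.7 and 27.1 CPM in WT, and 42.4 and 58.9 CPM in IgG. Cdk1, the kinase that drives mitosis, had 36.1 and 46.6 CPM in KO, against 31.5 and 29.1 CPM in WT, and 51.3 and 51.0 CPM in IgG. Nusap1, a spindle protein, had 103 and 171 CPM in KO, against 104 and 41.7 CPM in WT, and overlapped. Of 23 S phase genes, 3 were above WT in both KO libraries (13.0%, against 5.52% of all genes), among them the helicase subunits Mcm5 and Mcm6, and none was below. On library totals 1 was above (4.35%, against 1.95% of all genes) and 1 below (4.35%, against 13.6% of all genes). Rpa2, a subunit of the protein that coats single-stranded DNA, had 6.19 and 15.5 CPM in KO, against 5.25 and 8.62 CPM in WT, and Mcm3 had 23.9 and 61.0 CPM in KO, against 33.0 and 26.5 CPM in WT. Mcm6 had 47.9 and 49.7 CPM in KO, against 38.3 and 38.4 CPM in WT.

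The cell type was read from its markers. The marker sums are plain CPM without TMM scaling in every library, so they are not on the scale of the single-gene levels below. The 7 neural stem and progenitor markers in the table summed to 2240 and 3820 CPM in KO, against 2860 and 2530 CPM in WT, 2490 and 2630 CPM in IgG, and 7910 and 8700 CPM in the inputs, with none at 0 in any library. Over the 4 CPEB4 precipitates the sums were 191 to 381 CPM for quiescence and astrocyte markers, 37.6 to 45.6 CPM for microglia, 8.97 to 41.2 CPM for neuroblasts and neurons, 9.66 to 13.1 CPM for oligodendrocytes and 1.73 to 17.4 CPM for endothelium. In the inputs they were 323 and 359 CPM for quiescence and astrocyte markers, 134 and 115 CPM for oligodendrocytes, 61.6 and 52.3 CPM for microglia, 10.6 and 5.36 CPM for neuroblasts and neurons, and 2.53 and 1.26 CPM for endothelium. The microglial marker Aif1 had 1 and 0 counts in KO, against 2 and 1 in WT. The neural stem and progenitor sum was the highest of the 6 in every library. It covers 7 markers, against 5 for quiescence and astrocytes and 3 for endothelium, with 4 in each other set. Sox2, Tubb3 and Cldn5 were set as markers but were not among the genes counted. The ranking of sums is therefore only a rough guide to cell type. Nes, the intermediate filament nestin of neural stem cells, had 270.1 CPM in KO 1 and 2017 CPM in KO 2, against 330 and 360 CPM in WT, 698 and 943 CPM in IgG, and 871 and 970 CPM in the inputs. Hes5, a Notch target, had 7.13 and 22.9 CPM in KO, against 6.95 and 5.33 CPM in WT, and 12.9 and 31.0 CPM in IgG. Vim, vimentin, had 130 and 526 CPM in KO, against 172 and 193 CPM in WT, and 376 and 376 CPM in IgG. Egfr, the receptor of the mitogen EGF, had 1677 and 1062 CPM in KO, against 1888 and 1464 CPM in WT, and 911 and 865 CPM in IgG. Of the 18 list members tested, 2 were above WT in both KO libraries and 1, the RNA-binding protein gene Msi2, was below. On library totals 0 were above (1.95% of all genes) and 2 below (11.1%, against 13.6% of all genes). In Nes and Vim, KO 2 was the highest precipitate and KO 1 the lowest.

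Quiescence and astrocyte genes had a median log2 fold change of 0.12, with KO 2 above both WT libraries in 7 of 13, against 41.2% of all genes. Fgfr3, a fibroblast growth factor receptor, was above WT in both KO libraries, with 28.2 and 35.0 CPM in KO, against 19.4 and 27.0 CPM in WT, and 30.7 and 55.0 CPM in IgG. Slc1a2, the glutamate transporter of astrocytes, had 168 and 213 CPM in KO, against 260.2 and 324 CPM in WT, and 184 and 71.4 CPM in IgG. Sparcl1, a secreted matrix protein, had 0.563 and 0.777 CPM in KO, against 2.69 and 5.48 CPM in WT, levels of few counts. Aldoc, an aldolase of astrocytes, had 19.0 and 42.7 CPM in KO, against 16.3 and 22.3 CPM in WT, and overlapped. Slc1a2, Sparcl1 and Ntrk2, a neurotrophin receptor gene, made 3 of 13 quiescence and astrocyte genes below WT in both KO libraries (23.1%, against 7.06% of all genes). On library totals the number below was 3 of 13 (23.1%, against 13.6% of all genes), and 0 were above. Neuroblast and neuron genes had a median of 0.15. Syt1, a sensor of calcium at synaptic vesicles, had 38.4 and 5.05 CPM in KO, against 9.64 and 8.30 CPM in WT, and Sox11, a factor of newborn neurons, had 20.8 and 119 CPM in KO, against 56.9 and 43.2 CPM in WT. Both had the KO libraries on opposite sides of WT, as did the synaptic adhesion gene Nrxn3. Gad1, which makes the transmitter GABA, had 76.8 and 145 CPM in KO, against 269 and 226 CPM in WT, 132 and 48.9 CPM in IgG, and 298 and 84.6 CPM in the inputs. Rbfox3, the neuronal nuclear antigen, had 9.57 and 3.11 CPM in KO, against 12.5 and 24.4 CPM in WT. The neuroblast marker Dcx had 23 and 0 counts in KO, against 6 and 6 counts in WT. Gad1 and Rbfox3 were the 2 of 10 neuroblast and neuron genes below WT in both KO libraries, against 7.06% of all genes.

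Short, highly expressed housekeeping mRNAs split the KO libraries most completely. All 39 cytosolic ribosomal protein genes had KO 1 below both WT libraries and KO 2 above both, against 27.4% of all genes, so that no member had both KO libraries on the same side. Their summed level was 1255 CPM in KO 1 and 4451 CPM in KO 2, against 1714 and 2317 CPM in WT, 4375 and 3702 CPM in IgG, and 16020 and 15540 CPM in the inputs. Rps14 had 16.8 and 88.2 CPM in KO, against 30.1 and 22.3 CPM in WT, and 61.8 and 62.0 CPM in IgG. It encodes a protein of the small ribosomal subunit, and KO 2 was several times KO 1. Rplp0, a protein of the ribosomal stalk, had 52.1 and 227 CPM in KO, against 71.1 and 97.3 CPM in WT, and 243 and 203 CPM in IgG. Of 23 nuclear genes of oxidative phosphorylation, KO 1 was below both WT libraries in 20 (39.0% of all genes) and KO 2 above both in 22 (41.2% of all genes). Cox8a, a subunit of cytochrome c oxidase, had 14.3 and 71.5 CPM in KO, against 19.7 and 23.7 CPM in WT, and Ndufa4, of the same complex, had 17.2 and 42.4 CPM in KO, against 16.2 and 21.0 CPM in WT. The exception with both KO libraries above WT was Sdhb, a succinate dehydrogenase subunit, with 30.01 and 49.0 CPM in KO, against 25.8 and 29.6 CPM in WT.

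Replication-dependent histone genes, whose mRNAs end in a stem-loop and carry no poly(A) tail, behaved alike. KO 2 was above both WT libraries in all 20, against 41.2% of all genes, and KO 1 below both in 17, against 39.0%. Hist1h2ac had 13.3 and 74.2 CPM in KO, against 13.0 and 19.9 CPM in WT, and Hist1h2ae had 18.9 and 75.8 CPM in KO, against 19.0 and 26.0 CPM in WT. Hist1h4c, a histone H4 gene, had 50.7 and 234 CPM in KO, against 59.6 and 89.8 CPM in WT, 286 and 168 CPM in IgG, and 0.0574 and 0 CPM in the inputs. Hist1h3b had 80.0 and 359 CPM in KO, against 103 and 134 CPM in WT, 424 and 277 CPM in IgG, and 0.689 and 0.378 CPM in the inputs. The list summed to 629 and 2662 CPM in KO, against 773 and 1067 CPM in WT, 3299 and 2006 CPM in IgG, and 138 and 140.2 CPM in the inputs. The KO 2 sum lay between the IgG libraries, and histone RNA was low in the inputs beside every precipitate.

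Structural noncoding RNAs, likewise mostly without a poly(A) tail, gave 3 of 17 genes above WT in both KO libraries (17.6%, against 5.52% of all genes) and none below (7.06% of all genes). On library totals the number above was 2 of 17 (11.8%, against 1.95% of all genes). Rpph1, the RNA of ribonuclease P, had 51.7 and 86.7 CPM in KO, against 30.5 and 37.9 CPM in WT, 96.5 and 110 CPM in IgG, and 1.09 and 1.13 CPM in the inputs. Rny1, a Y RNA, had 51.1 and 123 CPM in KO, against 31.6 and 69.7 CPM in WT, and 112 and 32.8 CPM in IgG. Rpph1 was highest in IgG, and Rny1 overlapped between KO and WT. Rnu2-10, a U2 spliceosomal RNA gene, had 1153 and 937 CPM in KO, against 649 and 591 CPM in WT, 1536 and 876 CPM in IgG, and 0.115 and 0.126 CPM in the inputs. Rn7s1, the RNA of the signal recognition particle, had 1641 CPM in KO 1 and 13765 CPM in KO 2, against 2304 and 4484 CPM in WT, and 18342 and 8117 CPM in IgG. Such genes have near-identical copies, and no source used here says how the authors' counting split their reads, so their levels are uncertain.

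Mitochondrially encoded RNAs were set apart by WT 2. They made 0.169% of the counts left in KO 1 and 0.365% in KO 2, against 0.171% in WT 1 and 2.84% in WT 2, and 1.20% and 0.299% in IgG. All 37 mitochondrial genes were listed at 0 in both inputs, so their input level is unknown. mt-Nd3, a complex I subunit, had 30.1 and 45.5 CPM in KO, against 24.8 CPM in WT 1 and 847 CPM in WT 2, and 228 and 40.4 CPM in IgG. Its log2 fold change was -3.53 with all libraries and 0.60 without WT 2. mt-Atp8, an ATP synthase subunit, had 93.5 and 111 CPM in KO, against 49.6 CPM in WT 1 and 1794 CPM in WT 2, and log2 fold changes of -3.17 with and 1.04 without WT 2. The negative median of the list, -0.80, therefore depends on a single WT library.

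**Figure D4:**
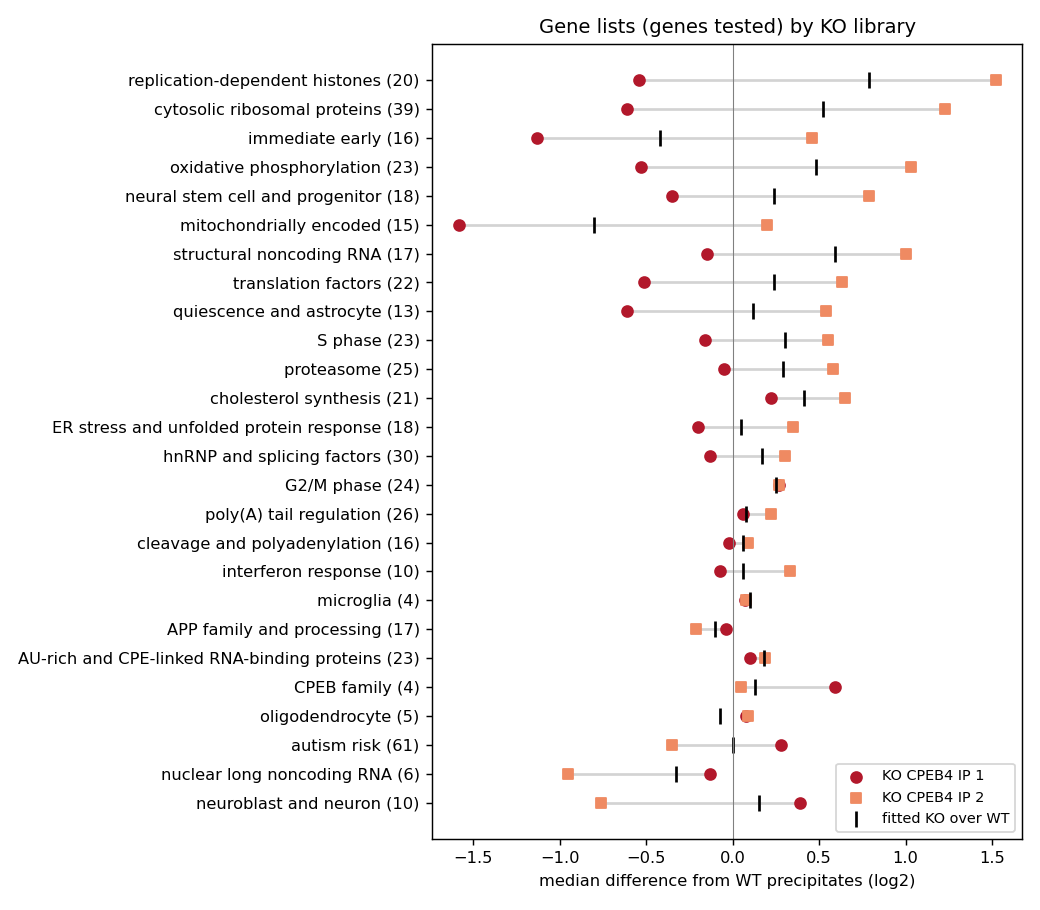
Median log2 difference from the WT precipitates for each gene list, with the number of genes tested in brackets, for KO CPEB4 IP 1 (circles), KO CPEB4 IP 2 (squares) and the fitted KO over WT (black ticks). Circles and squares lie on opposite sides of 0 for ribosomal proteins (-0.61 and 1.23) and histones (-0.54 and 1.52), and on the same side for cholesterol synthesis (0.22 and 0.65).

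Of 25 proteasome genes, 3 were above WT in both KO libraries (12.0%, against 5.52% of all genes) and none below, with a median of 0.29 against 0.06 for all genes. On library totals 1 was above (4.0%, against 1.95% of all genes) and 1 below (4.0%, against 13.6%). KO 2 was above both WT libraries in 21 of them, against 41.2% of all genes. Psma2, a subunit of the core particle, had 15.4 and 22.9 CPM in KO, against 13.3 and 12.1 CPM in WT, and Psmb3, another, had 10.9 and 32.6 CPM in KO, against 12.3 and 10.3 CPM in WT. The 10 interferon response genes had 1 above, Stat2, and 1 below, Irf9, with a median of 0.06. On library totals 0 were above and 2 below. H2-K1, an MHC class I gene, had 4.03 and 10.9 CPM in KO, against 2.98 and 5.48 CPM in WT, and Usp18, an interferon-induced protease, had 6.47 and 2.33 CPM in KO, against 8.08 and 6.27 CPM in WT. None of the 6 nuclear long noncoding RNAs was outside the WT range on the same side in both KO libraries, and their median was -0.33. Neat1, the scaffold of paraspeckles, had 60.5 and 35.7 CPM in KO, against 55.0 and 155 CPM in WT, and Miat had 7.60 and 1.55 CPM in KO, against 2.41 and 1.41 CPM in WT. Of 5 oligodendrocyte lineage genes, Cspg4, the NG2 proteoglycan of progenitors, was above WT in both KO libraries, with 50.8 and 37.7 CPM in KO, against 25.2 and 32.3 CPM in WT. On library totals 0 of these 5 genes were above in both. Of 4 microglial genes none was outside the WT range on the same side in both KO libraries, and P2ry12, a purine receptor, had 16.4 and 11.3 CPM in KO, against 13.3 and 12.4 CPM in WT, and Cd68, a lysosomal protein of phagocytes, had 2.16 and 1.55 CPM in KO, against 1.13 and 2.04 CPM in WT. Only 2 endothelial genes could be tested, with a median of -0.61, and KO 2 was below both WT libraries in both, against 40.1% of all genes.

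The difference between the KO libraries followed gene span, the genomic distance from a gene's start to its end with introns. Span was found for 13948 of the 15208 genes (91.7%), and the classes were chosen after seeing the data. For the 1478 genes of up to 3 kb, the median log2 difference from WT was -0.60 in KO 1 and 0.97 in KO 2. For 2277 genes of 3 to 10 kb it was -0.37 in KO 1 and 0.56 in KO 2, and for 4099 genes of 10 to 30 kb -0.05 in KO 1 and 0.16 in KO 2. The order was the reverse for long genes. For 3847 genes of 30 to 100 kb the medians were 0.18 in KO 1 and -0.23 in KO 2, and for 1700 genes of 100 to 300 kb 0.34 in KO 1 and -0.68 in KO 2. For the 547 genes over 300 kb they were 0.47 in KO 1 and -1.07 in KO 2, with KO 1 above both WT libraries at 70.6% of these genes and KO 2 below both at 92.9%.

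Averaging the KO libraries hid most of this: the median fitted log2 fold change was 0.35 for the shortest class and -0.05 for the longest. Over genes, Spearman's rho between span and the log2 ratio of KO 1 to KO 2 was 0.66 (13948 genes), and 0.80 over the 4440 genes with 100 or more counts in KO 2. The same measure for WT 1 over WT 2 was 0.31. These are descriptions across genes, which share library and depth. Span also went with the difference between IgG and input, with a median log2 difference of IgG from input of -1.37 for genes of up to 3 kb and 1.64 for genes over 300 kb. Within the third of genes highest in the inputs, the medians were -0.62 in KO 1 and 0.94 in KO 2 for genes of up to 10 kb, and 0.28 in KO 1 and -0.53 in KO 2 for genes over 100 kb, so the pattern was present at high expression too.

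**Figure D5:**
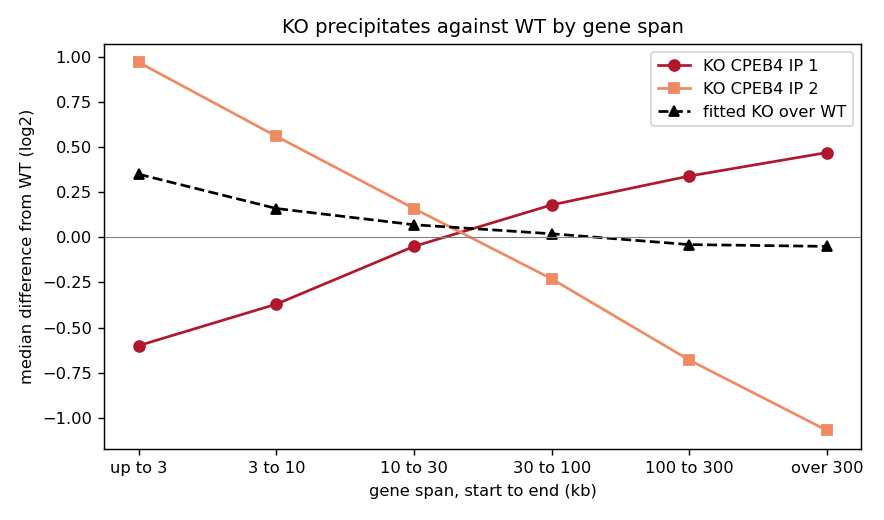
Median log2 difference from the WT precipitates by class of gene span (kb), for KO CPEB4 IP 1 (circles), KO CPEB4 IP 2 (squares) and the fitted KO over WT (triangles, dashed). KO 1 goes up with span, from -0.60 to 0.47, KO 2 goes down, from 0.97 to -1.07, and the fitted line stays between 0.35 and -0.05.

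Because the KO libraries differ, each was also set alone against the 2 WT precipitates, with the lone KO library assumed to vary like WT. These 2 fits share the WT libraries and so are not independent of each other. KO 1 alone gave 150 genes higher (0.92% of 16313) and 143 lower (0.877%) at an adjusted p under 0.05 (edgeR quasi-likelihood test). KO 2 alone gave 523 higher (3.3% of 15863) and 169 lower (1.07%). Of the lists, the highest median log2 differences of KO 2 from WT were 1.52 for histones, 1.23 for ribosomal proteins and 1.03 for oxidative phosphorylation. In KO 1 the medians of these lists were -0.54, -0.61 and -0.53. Fbln7 had log2 fold changes of -1.76 with KO 1 alone and -2.07 with KO 2 alone. Nr5a2 had -1.44 with KO 1 alone and -1.79 with KO 2 alone. Peg10 had 4.21 with KO 1 alone and 1.90 with KO 2 alone. Fbln7, Nr5a2 and Peg10 were chosen by their p in these same libraries, so the single fits are no further support for them.

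The genes that led each single fit, named after their values were seen, showed how unlike the KO libraries were. Chl1, a neural adhesion protein, had 301 CPM in KO 1 and 6.61 CPM in KO 2, against 20.4 and 25.1 CPM in WT and 5.65 and 94.5 CPM in IgG, so that it was called higher with KO 1 alone (3.75) and lower with KO 2 alone (-1.79). Zfhx4, a homeobox factor, had 40.3 and 3.50 CPM in KO, against 2.27 and 3.76 CPM in WT, and 2.42 and 2.13 CPM in IgG. Loxl2, a lysyl oxidase of the matrix, had 1.78 and 21.4 CPM in KO, against 39.4 and 39.2 CPM in WT, 16.95 and 0.304 CPM in IgG, and 1.95 and 3.34 CPM in the inputs. Gjc1, a gap junction protein, had 0.750 and 20.6 CPM in KO, against 23.1 and 14.1 CPM in WT, 11.3 and 1.22 CPM in IgG, and 26.0 and 23.7 CPM in the inputs. Among the precipitates of Loxl2 and Gjc1, KO 1 and the second IgG library were the low ones, and for Loxl2 both inputs were low too.

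KO 2 led in a different kind of gene. Fgfr2, a fibroblast growth factor receptor, had 901 CPM in KO 1 and 23458 CPM in KO 2, against 1915 and 1305 CPM in WT, 21535 and 23573 CPM in IgG, and 643 and 632 CPM in the inputs. Itga9, an integrin subunit, had 837 CPM in KO 1 and 14133 CPM in KO 2, against 1378 and 1859 CPM in WT, 15227 and 12345 CPM in IgG, and 110.2 and 102 CPM in the inputs. Wdr92, a WD-repeat protein, had 89.1 CPM in KO 1 and 1687 CPM in KO 2, against 105 and 155 CPM in WT, and 1410 and 944 CPM in IgG. n-R5-8s1, a 5.8S ribosomal RNA gene, had 60.4 CPM in KO 1 and 1878 CPM in KO 2, against 66.7 and 86.3 CPM in WT, and 3032 and 2077 CPM in IgG. In Fgfr2, Itga9 and Wdr92, KO 2 was within or above the IgG range, and KO 1 was below both WT precipitates. In the direct comparison with both KO libraries, the log2 fold changes of Fgfr2 (2.92, SE 1.71) and Itga9 (2.21, SE 1.48) had an adjusted p of 1.00 by the edgeR test.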

How the data were processed

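RNA immunoprecipitation libraries from cultured mouse neurospheres were analysed from the authors' deposited table of whole-number counts per gene (27144 genes, 98.2% paired with a symbol; 0 lines without an identifier, 0 columns not used). Per the submitters' processing notes, the build was mm10 and the tools included Bowtie2, SAMtools and Cell Ranger; versions, roles, annotation and strand setting are not stated there, so overlapping and antisense genes are uncertain. Groups came from the sample labels. Genes with 1% or more of counts in both IgG libraries were left out, which removed 17. KO and WT precipitates were compared with edgeR 4.0.16 (filterByExpr, TMM, quasi-likelihood test, group only, Benjamini-Hochberg threshold 0.05) in R 4.3.3. The log2 fold change is KO over WT. Differences of single libraries used log2(CPM + 0.5). The test was checked on data simulated with the spread between replicates estimated from these libraries. It recovered 0 of 200 genes changed 2-fold, 33 of 200 changed 4-fold and 156 of 200 changed 8-fold. That no gene was called therefore says little about changes below 8-fold, and it does not show that larger ones are absent. The simulation gave KO and WT the same spread and drew each gene on its own. In these libraries the KO replicates differed more than the WT replicates, so recovery may be lower. Peg10, with a fitted fold of 11.18, and Sgce, with 16.32, were not called.

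No replicate pair agreed within sampling noise: the chi-square per degree of freedom was 183 for KO, 46.0 for WT, 16.2 for IgG and 49.6 for input. Depth is 2898187 to 10809173 counts per CPEB4 precipitate after the left-out genes, which limits low genes most in KO 2. Gene positions and spans were matched by symbol to the RefSeq gene table of GRCm38.p6, which is the mm10 assembly.

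Named genes were the CPEB family, the 10 of smallest unadjusted p each way without overlap and with a mean of 50 or more counts in the higher group (no gene passed the threshold), the 2 of smallest p in each list with 3 or more members tested, and the left-out genes; predicted genes and pseudogenes were passed over. A few of these genes are not reported here. Other named list members and the genes leading a single KO library were chosen after their values were seen. The members and lists were chosen with earlier results of these data known. Alternatives were DESeq2 1.42.0, other scalings, filters and left-out sets, all 8 libraries in the fit, a replicate block, and leaving out each library. Polyadenylation elements in 3′ untranslated regions were not analysed here.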

Additional observations from a re-analysis of the deposited data

How the results depend on the processing

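The count of 0 genes called stood with DESeq2 size factors, library totals, no gene left out, genes of 0.1% or more left out, and all 8 libraries. DESeq2 called 1 gene, 1 higher, and without a low-count filter edgeR called 27, 10 higher and 17 lower, among them 1 list member, mt-Nd3. Leaving out 1 library gave 0 to 692 calls, 0 to 523 higher, 0 to 169 lower and 0 to 56 list members; the calls came without KO 1 (692) or without KO 2 (293), which leaves a single KO library, and without either WT library there were 0. The labels do not say that replicate numbers pair the samples, and there are only 2 pairs; with the replicate block 0 genes were called (62 at an unadjusted p under 0.05). Across genes, the replicate ratios of KO and WT had a Pearson r of 0.29. Cpeb4 kept its sign, from 0.50 on library totals to 0.83 with the block, and from 0.11 to 1.57 when 1 library was left out. Library totals moved the median log2 fold change of all genes from 0.06 to -0.11. Of the named genes, 3 changed sign under a setting other than leaving out a library: Cpeb1 (-0.17 on library totals, 0.00 without the filter, -0.02 with all 8 libraries), Cpeb2 (-0.04 on library totals) and P2ry12 (-0.04 on library totals). Leaving out 1 library turned the sign of named genes whose ranges over the 4 such fits were -0.16 to 0.19 for Cpeb1, -0.39 to 0.89 for Cpeb2, -0.54 to 0.68 for Cpeb3, -0.03 to 0.71 for Cnot8, -0.62 to 1.58 for Clp1, -0.18 to 1.09 for Cpsf4, -1.14 to 3.33 for Cntn4, -0.08 to 0.58 for Pdia3, -0.14 to 1.15 for Rpa2, -0.29 to 1.02 for Mcm3, -0.33 to 2.54 for Nes, -0.09 to 0.74 for Cd68, -0.20 to 0.38 for P2ry12, -0.61 to 1.74 for Rps14, -0.76 to 1.29 for Eif5a, -0.02 to 0.75 for Eif3b, -0.57 to 1.71 for Cox8a, -0.09 to 1.17 for Ndufa4, -4.48 to 0.60 for mt-Nd3, -4.13 to 1.04 for mt-Atp8, -0.31 to 2.00 for Miat, -0.28 to 2.16 for Hist1h2ac, -0.23 to 1.74 for Hist1h2ae, -0.54 to 1.03 for Srsf2, -0.54 to 0.92 for Srsf1, -0.04 to 1.35 for H2-K1 and -0.04 to 1.51 for Psmb3. The cause was not tested. Gpr180 ranged from -2.23 to -0.22. The precision of low genes is limited by the 2898187 counts left in KO 2.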

Other observations

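Several genes were high both in KO 1 and in the second WT IgG library, although these differ in genotype label and antibody. Rprl2, a second gene named for its likeness to ribonuclease P RNA, had 53 and 1 counts in the KO precipitates, against 1 and 0 in WT, and 7 and 70 in IgG. Cpne8, a copine that binds membranes on calcium, had 154 and 8.55 CPM in KO, against 17.4 and 11.4 CPM in WT, and 12.5 and 64.4 CPM in IgG. Chl1, Cntn4, Igf2bp2, Sgce and Peg10 had the same pair of high libraries, and Loxl2 and Gjc1 the same pair of low ones among the precipitates.

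The second replicate of WT input had lower values than the first for several nuclear and stimulus-responsive RNAs. Xist, the long noncoding RNA of the inactive X chromosome, had 1399 and 724 CPM in the KO precipitates, against 1515 and 1087 CPM in the WT precipitates and 736 and 62.3 CPM in the inputs. Malat1, a nuclear long noncoding RNA, had 523 and 1445 CPM in the KO precipitates, against 742 and 834 CPM in the WT precipitates and 1443 and 317 CPM in the inputs.

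Spliceosomal and other small nuclear RNA genes (36 tested) had KO 1 above both WT libraries at 83.3%, against 37.1% of all genes. KO 2 was above both at 36.1%, against 41.2% of all genes, and below both at 47.2%, against 40.1%, with medians of 0.79 in KO 1 and -0.10 in KO 2 against WT. Annotated pseudogenes (976 tested) followed the short genes, with medians of -0.60 in KO 1 and 0.96 in KO 2.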
